A study of Mus musculus with 6 samples.

Results

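A set of 46 genes that run mitosis was followed in mouse eosinophils grown from bone marrow and exposed to IL-33. The genes are named by their function (mitotic cyclins and kinases, the spindle checkpoint, the kinetochore, kinesins and the proteins that build the spindle and divide the cell). All 46 were found among the 23420 genes of the authors' deposited table of normalized counts. The 3 IL-33 libraries came from cells treated for 3 hours with 2.5 ng/mL of IL-33, a cytokine that injured barrier tissue sets free, and the 3 PBS libraries from cells given the vehicle. Both groups were wild-type marrow kept for 4 days in stem cell factor and FLT3 ligand, each at 100 ng/mL, with IL-5 at 20 ng/mL from then on. On day 14 dead cells were removed, and the labels describe no other purification step. Nothing in the labels ties a group's libraries to different mice or cultures. The p-values hence measure only how far these libraries spread, and that spread may be technical.

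A dividing cell makes the mRNAs of mitosis late in its cycle, as it passes from DNA replication into division, and takes them down again afterwards. Cdk1 with a cyclin B starts mitosis, the spindle checkpoint holds it until each chromosome is attached through its kinetochore, and the anaphase-promoting complex then destroys cyclin B and frees the chromosomes to part. Mature eosinophils are regarded as cells that no longer divide, whereas their precursors in marrow cultures do. A library is RNA of the whole culture, so fewer dividing cells and less mitotic mRNA in each such cell cannot be told apart here.

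The libraries held 4229504 to 7129435 recovered reads outside Rn45s, the ribosomal RNA precursor gene. Throughout, the values of a group are listed in the order of replicates 1, 2 and 3, levels are normalized counts, and gene coordinates are those of GRCm38 (mm10). Rn45s took 24.3%, 59.6% and 54.8% of all IL-33 reads, against 24.8%, 23.3% and 13.7% in PBS. The mitosis genes together held 2944, 2297 and 1765 reads after IL-33, against 6473, 9118 and 7131 in PBS, so single genes rest on few reads. Transcripts of eosinophil granule proteins were abundant, with Prg2, which encodes major basic protein, at 12715, 20834 and 11033 after IL-33, against 30118, 41054 and 28512 in PBS. The defining transcripts of the labelled cell type were thus present, although Prg2, Epx and Il5ra were themselves lower after IL-33 (log2 fold changes −1.20, −2.04 and −2.53).

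Mitotic transcripts were lower after IL-33. The summed level of the 46 genes was 2647, 3533 and 2991 in the IL-33 libraries, against 5027, 6634 and 4984 in the PBS libraries, so that the groups did not overlap. As a share of reads outside Rn45s, these genes made up 0.0413%, 0.0527% and 0.0417% after IL-33, against 0.0982%, 0.132% and 0.101% in PBS. Of the 43 genes that passed the filter on low values (a normalized count of at least 10 in at least 3 libraries), 24 fell, 0 rose and 19 were not called (limma on log2 of the normalized count plus 1, Benjamini-Hochberg adjusted p under 0.05 over all genes tested). Among all 10544 genes tested, 14.4% were called lower and 17.4% higher. At an unadjusted p under 0.05, also 0 of the 43 were higher, and edgeR called 27 lower and 0 higher, against 14% lower and 18.1% higher of all genes tested. The median log2 fold change of the 43 was −1.38, and that of all genes tested was −0.03. The mean was lower after IL-33 for 45 of the 46 genes, Bub3 being the exception.

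In 32 of the 43 genes each IL-33 library lay below each PBS library, which held for 24.7% of all genes tested. The reverse was seen in 0 of the 43 and in 25.5% of all genes tested. Of the genes tested, 15 had fewer than 3 IL-33 libraries at 10 or more and so passed the filter only with the PBS libraries, which favours genes that are higher in PBS. Of those 15, 11 were called lower. Among the 28 genes at 10 or more in all 6 libraries, 13 were called lower. The share of all genes called lower under either condition was not computed, so neither count can be set against a like background. All 43 genes tested stood at 10 or more in each PBS library, and Cdc25c, Ttk and Kif18a did not pass the filter.

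**Figure D1:**
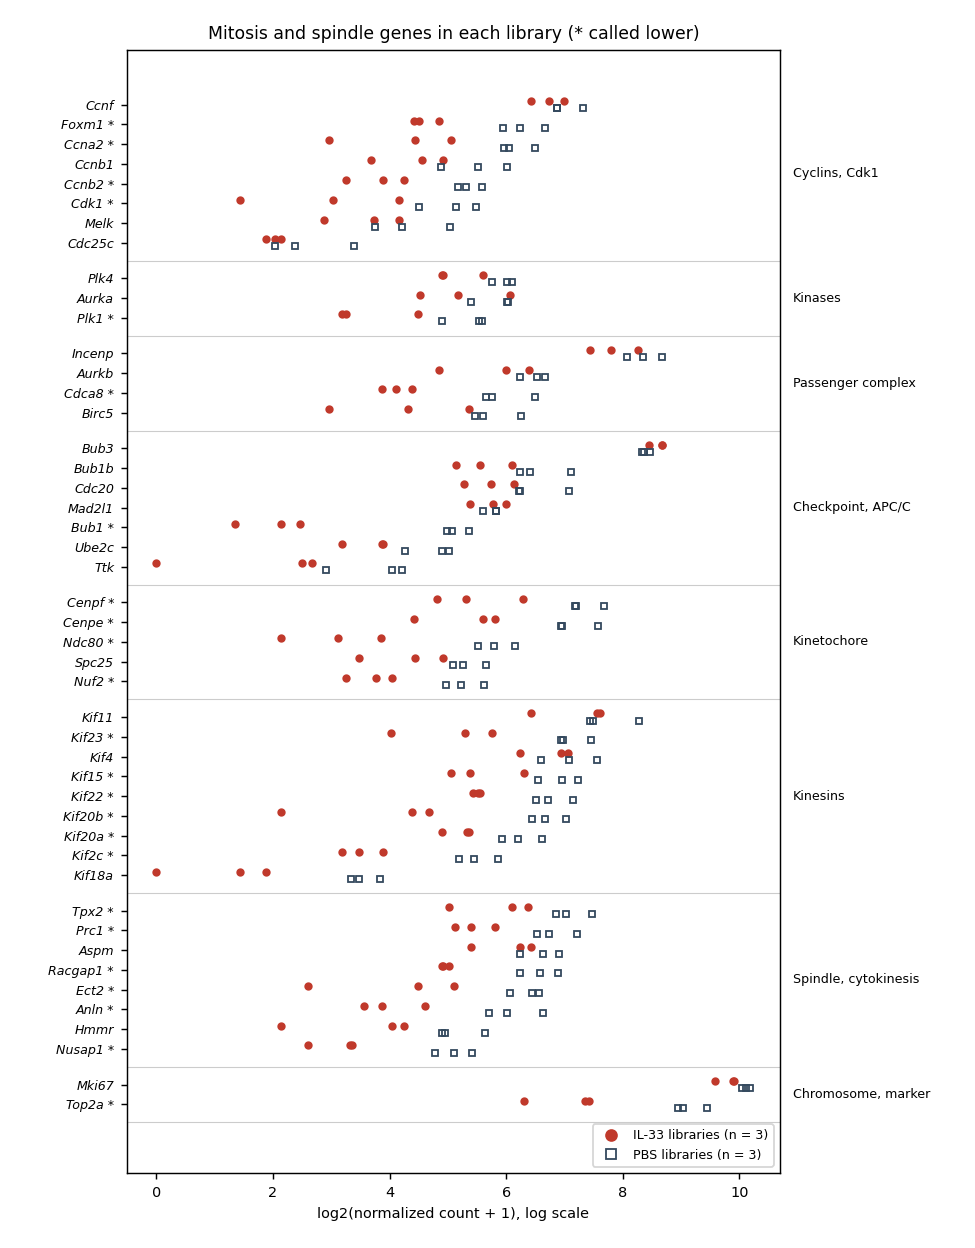
Each row is a mitosis or spindle gene and each point its level in a library, as log2(normalized count + 1), with the 3 IL-33 libraries as filled circles and the 3 PBS libraries as open squares. The 24 genes with an asterisk were called lower, and in 32 of the 43 genes tested the circles all lie left of the squares.

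The number called depended on single PBS libraries, while the median stayed below 0 in each alternative run. Without PBS replicate 1, 2 or 3, 18, 12 and 15 of the 43 genes were called lower, against 6.24%, 3.82% and 3.36% of all genes tested. Without IL-33 replicate 1, 2 or 3 the numbers called lower were 30, 23 and 22, against 28.2%, 7.26% and 11.5% of all genes tested. With a filter at 50 instead of 10, 15 of 28 genes were called lower, against 14.9% of all genes tested. The 12 genes that stayed called without each library in turn were Bub1, Kif20b, Ndc80, Top2a, Anln, Nusap1, Kif2c, Cenpf, Cdca8, Foxm1, Racgap1 and Kif22. When libraries were scaled to equal totals, 42 were lower and 0 higher, and without Rn45s in the totals 37 and 0, while these scalings called 50.1% and 33.9% of all genes lower and 2.5% and 9.02% higher. They moved the median over all genes tested to −1.06 and −0.45 (log2). Measured against that shift the median of the mitosis genes was −1.34 under both scalings, against −1.35 as scaled by the authors. A scaling factor shifts all genes of a library nearly alike on this scale, so that difference could hardly change. Its near equality does not bear on which scaling is right.

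The IL-33 libraries were also set against PBS singly. The median difference of the 43 genes from the PBS mean was −1.46, −0.89 and −1.79 in IL-33 replicates 1, 2 and 3, on the log2 scale. Replicate 1, with an Rn45s share of 24.3%, compared alone with the 3 PBS libraries gave 36 genes lower and 0 higher, with 18% of all genes tested called lower and 19% higher. That comparison assumes that the lone library varies like the PBS libraries.

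**Figure D2:**
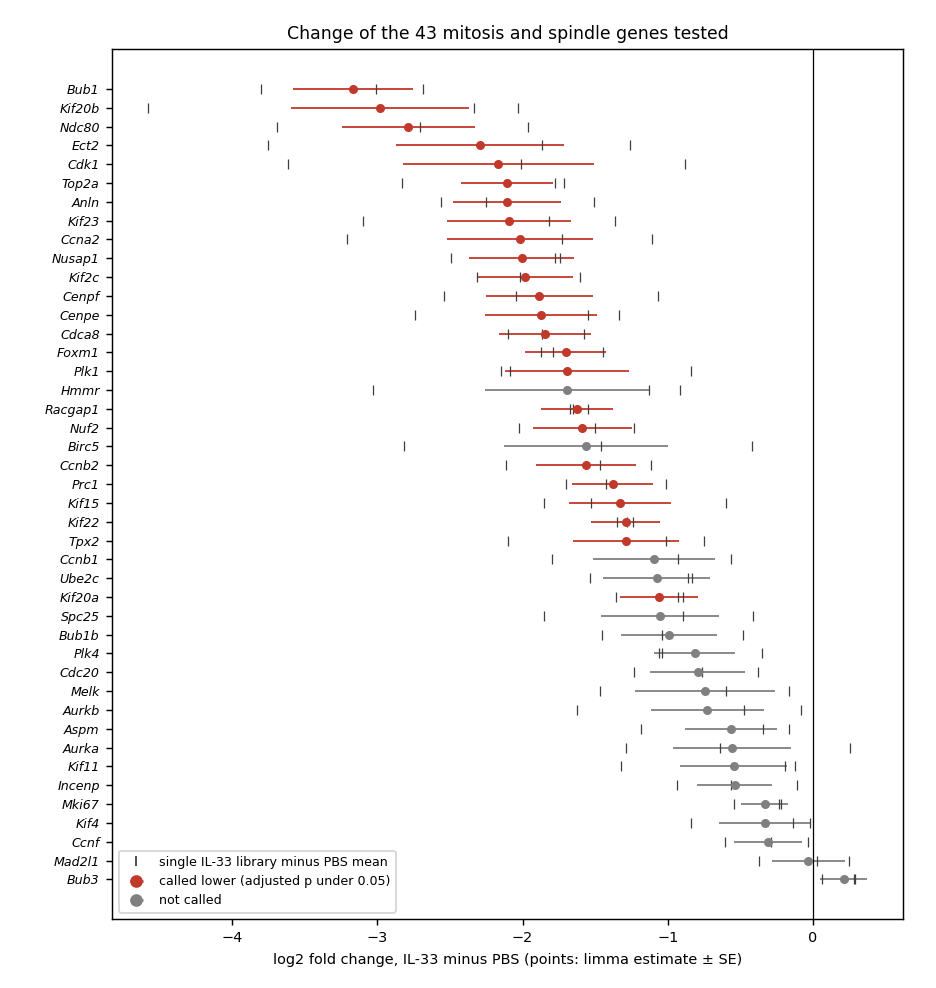
Points give the log2 fold change of each of the 43 genes tested, IL-33 minus PBS, with its standard error, coloured by call, and ticks give each IL-33 library minus the PBS mean. The estimates run from −3.17 for Bub1 to 0.21 for Bub3, and 42 of the 43 lie below 0.

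The promoters of these genes were searched for short sequence elements. Promoters of genes that peak in mitosis are known for CCAAT boxes, which bind the factor NF-Y, and for a hexamer called the cell cycle genes homology region (CHR), which lies near the start site and binds the MuvB complex. The CHR is written TTTGAA, and a second form of it is TTCGAA. RefSeq promoter windows (GRCm38.p6, 250 bases before to 50 after the start) were matched for 39 of the 46 genes. No window was matched for Ccna2, Cdc25c, Foxm1, Aurkb, Incenp, Kif20a and Tpx2. CCAAT, searched on both strands, was in a window of 27 of the 39 genes (69.2%), and of 41.1% of all 27025 genes with a window. A CHR of either form, also on both strands, was in 30 of the 39 (76.9%), and in 21.7% of all genes. Within 50 bases of the start it was found in 28 of the 39 (71.8%), and in 6.12% of all genes. The variant TTTAAA was in 10 of the 39 (25.6%), and in 14.9% of all genes. A CCAAT box overlapped a CHR in 1 window, that of Cdca8, by 1 base.

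The elements were found in called and uncalled genes. A CHR stood in the windows of 17 of the 20 genes called lower that had a window, and of 12 of the 17 not called. A CCAAT box stood in those of 13 of the 20 and 13 of the 17. Both stood in those of 12 of the 20 and 12 of the 17, and of 8.61% of all genes with a window. No test was run on these counts. The 250 bases before the start are shown for 2 genes that were called lower, Top2a (chr11:99024190-99024439, minus strand) and Cdk1 (chr10:69352913-69353162, minus strand), and for 2 that were not, Cdc20 (chr4:118437344-118437593, minus strand) and Mki67 (chr7:135716380-135716629, minus strand). They are written 5′ to 3′ on the gene's strand, from RefSeq GRCm38.p6, with CCAAT boxes and CHRs on either strand in capitals (a box on the other strand reads ATTGG, and a CHR there can read TTCAAA). Both kinds of element can be seen in each of the 4, with 6 CCAAT boxes in Top2a, 3 in Cdk1, 2 in Cdc20 and 3 in Mki67. The hexamers marked in Mki67 end 111 and 93 bases before the start, so Mki67 has no CHR within 50 bases of it.
Top2a: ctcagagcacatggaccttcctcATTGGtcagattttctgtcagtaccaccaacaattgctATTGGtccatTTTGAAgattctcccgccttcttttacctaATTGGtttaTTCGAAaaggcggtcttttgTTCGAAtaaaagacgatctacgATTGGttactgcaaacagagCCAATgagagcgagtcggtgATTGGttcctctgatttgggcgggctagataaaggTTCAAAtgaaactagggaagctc
Cdk1: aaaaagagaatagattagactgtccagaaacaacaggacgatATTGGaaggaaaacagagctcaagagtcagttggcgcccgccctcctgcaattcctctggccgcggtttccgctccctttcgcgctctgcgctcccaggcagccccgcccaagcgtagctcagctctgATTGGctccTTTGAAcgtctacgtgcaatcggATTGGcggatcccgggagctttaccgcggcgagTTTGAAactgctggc
Cdc20: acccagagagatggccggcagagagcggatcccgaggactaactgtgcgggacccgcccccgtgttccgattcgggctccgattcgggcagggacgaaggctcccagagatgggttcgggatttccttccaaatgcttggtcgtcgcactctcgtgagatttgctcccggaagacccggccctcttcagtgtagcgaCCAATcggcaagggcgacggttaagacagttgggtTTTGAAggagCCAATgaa
Mki67: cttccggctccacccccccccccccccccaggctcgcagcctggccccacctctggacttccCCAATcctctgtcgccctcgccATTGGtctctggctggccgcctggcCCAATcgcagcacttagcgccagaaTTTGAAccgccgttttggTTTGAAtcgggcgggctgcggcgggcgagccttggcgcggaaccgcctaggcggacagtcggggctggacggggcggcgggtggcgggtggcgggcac

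Of the chromosome proteins, Top2a fell and Mki67 was not called. Top2a (chromosome 11, 98992943 to 99024189), which encodes topoisomerase II alpha, the enzyme that untangles sister chromatids, stood at 171, 163 and 77.96 in the IL-33 libraries, against 492, 693 and 521 in the PBS libraries. It had the most reads of the 24 mitosis genes called lower, and its highest IL-33 library held less than its lowest PBS library (log2 fold change −2.11, SE 0.32, adjusted p = 0.00295, limma). Mki67 (chromosome 7, 135689784 to 135716361) encodes the chromosome surfactant Ki-67, the usual marker of cycling cells. It stood at 762, 957 and 946 in the IL-33 libraries, against 1062, 1166 and 1111 in the PBS libraries. The groups did not overlap, but the difference was small (log2 fold change −0.33, SE 0.16, adjusted p = 0.143, limma). Mki67 was called lower with equal totals (log2 fold change −1.37), with equal totals without Rn45s (−0.76), after quantile normalization (−0.66) and with IL-33 replicate 1 alone (−0.55).

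Cdk1, its A- and B-type cyclins and the factor that drives their transcription were measured next. Of the 7 genes of this group that were tested, 4 fell and 0 rose, against 14.4% lower and 17.4% higher of all genes tested. Foxm1 (chromosome 6, 128362967 to 128376146), a transcription factor of late cell cycle genes, had 21.6, 27.7 and 20.3 in the IL-33 libraries, against 74.6, 101 and 60.8 in the PBS libraries. All IL-33 values lay below all PBS values (log2 fold change −1.70, SE 0.28, adjusted p = 0.00440, limma). Ccna2, which encodes cyclin A, stood at 20.7, 32.3 and 6.78 in the IL-33 libraries, against 65.2, 88.8 and 61.5 in the PBS libraries (log2 fold change −2.02, SE 0.50, adjusted p = 0.0199, limma). Ccnb2 (chromosome 9, 70407692 to 70421547), one of the B-type cyclins, stood at 17.98, 13.8 and 8.47 in the IL-33 libraries, against 38.8, 47.3 and 34.9 in the PBS libraries (log2 fold change −1.57, SE 0.34, adjusted p = 0.0127, limma). Cdk1 (chromosome 10, 69335146 to 69352938), the kinase that these cyclins activate, had 7.19, 16.9 and 1.69 in the IL-33 libraries, against 21.7, 43.7 and 34.2 in the PBS libraries, from 20 reads over the IL-33 libraries and 137 over the PBS libraries (log2 fold change −2.17, SE 0.66, adjusted p = 0.0383, limma). IL-33 replicate 3 was the lowest library for Cdk1, Ccna2 and Ccnb2.

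These calls were not equally firm. Foxm1 was called without each library in turn. Ccna2 was not called without any one PBS library (log2 fold change −2.12 to −1.86, adjusted p = 0.0604 to 0.0834, limma), and Ccnb2 was not called without PBS replicate 2 or 3 (log2 fold change −1.66 to −1.45, adjusted p = 0.0537 to 0.0694, limma). Cdk1 lost its call without IL-33 replicate 3 or any one PBS library (log2 fold change −2.43 to −1.44, adjusted p = 0.0517 to 0.133, limma), and also after quantile normalization (−1.97). Ccnb1, which encodes the main mitotic cyclin, was not called, at 22.5, 29.2 and 11.9 in the IL-33 libraries, against 45.04, 64.03 and 28.7 in the PBS libraries (log2 fold change −1.09, SE 0.42, adjusted p = 0.0769, limma). One IL-33 library of Ccnb1 overlapped the lowest PBS library. Ccnf, an F-box protein of a ubiquitin ligase, had 84.5, 126 and 105 in the IL-33 libraries, against 116, 159 and 117 in the PBS libraries, with a log2 fold change of −0.31 (SE 0.23). Melk, a kinase of dividing cells, stood at 6.29, 12.3 and 16.9 in the IL-33 libraries, against 12.4, 32.01 and 17.5 in the PBS libraries, with a log2 fold change of −0.74 (SE 0.48). Cdc25c, the phosphatase that switches Cdk1 on, lay between 2.697 and 9.46 in all 6 libraries and was not tested.

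Of the Polo-like and Aurora A kinases, only Plk1 of the 3 genes tested was called, against 14.4% of all genes tested called lower. Plk1 (chromosome 7, 122159439 to 122169873), which acts at centrosomes, kinetochores and the midzone of the spindle, had 8.09, 21.5 and 8.47 in the IL-33 libraries, against 28.7, 45.1 and 46.8 in the PBS libraries (log2 fold change −1.69, SE 0.43, adjusted p = 0.0208, limma). Without PBS replicate 2 or 3 it was not called (log2 fold change −1.60 to −1.57, adjusted p = 0.0893 to 0.0981, limma). Plk4, the kinase that starts the duplication of centrioles, had 47.7, 29.2 and 28.8 in the IL-33 libraries, against 67.6, 63.3 and 53.1 in the PBS libraries. Its groups did not overlap, yet it missed the threshold (log2 fold change −0.81, SE 0.28, adjusted p = 0.0550, limma). Aurka, which encodes the spindle pole kinase Aurora A, stood at 35.1, 66.1 and 22.03 in the IL-33 libraries, against 64.5, 63.3 and 41.2 in the PBS libraries (log2 fold change −0.56, SE 0.40, adjusted p = 0.308, limma). IL-33 replicate 2 was the highest of all 6 libraries for Aurka.

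The chromosomal passenger complex joins Aurora B to the inner centromere. Of its 4 genes, 1 fell and 0 rose, against 14.4% lower and 17.4% higher of all genes tested. Cdca8 (chromosome 4, 124918465 to 124939311), which encodes borealin, the subunit that helps to target the complex, stood at 16.2, 19.99 and 13.6 in the IL-33 libraries, against 52.8, 88.8 and 49.6 in the PBS libraries (log2 fold change −1.85, SE 0.32, adjusted p = 0.00524, limma). Birc5, which encodes survivin, had 18.9, 39.99 and 6.78 in the IL-33 libraries, against 47.4, 75.7 and 43.3 in the PBS libraries, without overlap but with a wide spread among IL-33 libraries (log2 fold change −1.57, SE 0.56, adjusted p = 0.0640, limma). Aurkb, the kinase itself, had 27.9, 63.1 and 83.05 in the IL-33 libraries, against 91.6, 100.4 and 74.1 in the PBS libraries (log2 fold change −0.73, SE 0.39, adjusted p = 0.175, limma). Incenp, the scaffold subunit, stood at 172, 223 and 305 in the IL-33 libraries, against 269, 408 and 326 in the PBS libraries (log2 fold change −0.54, SE 0.26, adjusted p = 0.138, limma). For Aurkb and Incenp, IL-33 replicate 1 was the lowest library and replicate 3 reached into the PBS range. Among genes compared per kilobase of the longest annotated transcript, Incenp was the third highest mitosis gene in PBS, at 97.04 normalized counts per kilobase.

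The spindle checkpoint and the activators of the anaphase-promoting complex included the gene with the lowest log2 fold change of the 43 and the gene with the highest. Of 6 genes tested, 1 fell (16.7%) and 0 rose. The share that fell lies near the 14.4% of all genes tested called lower, and 17.4% of them were called higher. Bub1 (chromosome 2, 127801122 to 127831865), a checkpoint kinase of the kinetochore, had 4.495, 1.54 and 3.39 in the IL-33 libraries, against 40.4, 32.7 and 30.8 in the PBS libraries. The estimate (log2 fold change −3.17, SE 0.41, adjusted p = 0.00165, limma) comes from 8 IL-33 reads, against 141 PBS reads. Bub3 (chromosome 7, 131560222 to 131571895), which brings Bub1 and BubR1 to the kinetochore, stood at 349.7, 409 and 407 in the IL-33 libraries, against 353, 330.3 and 321 in the PBS libraries, which was not called (log2 fold change 0.21, SE 0.16, adjusted p = 0.339, limma). It was the only gene of the 43 with a log2 fold change above 0, and scaling to equal totals turned it to −0.83, which was called lower. The same scaling without Rn45s gave −0.21, which was not called.

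Mad2l1, whose product Mad2 holds Cdc20 inactive, had 53.9, 63.1 and 40.7 in the IL-33 libraries, against 47.4, 56.02 and 55.9 in the PBS libraries, with a log2 fold change of −0.033 (SE 0.25) that changed sign between settings. Bub1b, which encodes BubR1, had 34.2, 67.7 and 45.8 in the IL-33 libraries, against 74.6, 138 and 83.9 in the PBS libraries, just short of the threshold (log2 fold change −0.99, SE 0.33, adjusted p = 0.0519, limma). Cdc20 (chromosome 4, 118432901 to 118437352), the activator of the anaphase-promoting complex, stood at 37.8, 69.2 and 52.5 in the IL-33 libraries, against 73.8, 134 and 74.1 in the PBS libraries, without overlap and not called (log2 fold change −0.79, SE 0.33, adjusted p = 0.0945, limma). Ube2c, the ubiquitin-conjugating enzyme of that complex, had 8.09, 13.8 and 13.6 in the IL-33 libraries, against 28.7, 31.3 and 18.2 in the PBS libraries (log2 fold change −1.08, SE 0.37, adjusted p = 0.0548, limma). Exons of Ube2c overlap, over 22.8% of their bases, exons of Tnnc2 on the other strand, and reads of the 2 genes may not be told apart. Ttk, which encodes the checkpoint kinase Mps1, stood at 5.39, 4.61 and 0 in the IL-33 libraries, against 15.5, 6.55 and 17.5 in the PBS libraries, and missed the filter. The IL-33 libraries of Ttk, with 9 reads in all, lay below the PBS libraries, with 54.

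Among the 5 kinetochore genes, 4 fell, 0 rose and Spc25 was not called, against 14.4% lower and 17.4% higher of all genes tested. In each of the 5 the IL-33 libraries lay below the PBS libraries, which held for 24.7% of all genes tested. Ndc80 (chromosome 17, 71496100 to 71526857), which encodes the subunit that grips the microtubule, had 13.5, 7.69 and 3.39 in the IL-33 libraries, against 45.04, 69.8 and 54.5 in the PBS libraries (log2 fold change −2.79, SE 0.46, adjusted p = 0.00440, limma). Nuf2, its partner in the same complex, had 12.6, 15.4 and 8.47 in the IL-33 libraries, against 30.3, 48.02 and 36.3 in the PBS libraries (log2 fold change −1.59, SE 0.34, adjusted p = 0.0116, limma). Spc25, another subunit, stood at 20.7, 29.2 and 10.2 in the IL-33 libraries, against 37.3, 49.5 and 32.8 in the PBS libraries, which was not called (log2 fold change −1.05, SE 0.40, adjusted p = 0.0768, limma). So 2 of the 3 subunits of that complex in this set passed the test. Spc24, a further subunit read with another list, was not called (log2 fold change 0.04, SE 0.47, adjusted p = 0.951, limma). It stood at 26.1, 86.1 and 91.5 in the IL-33 libraries, against 62.1, 69.1 and 44.03 in the PBS libraries. Cenpf (chromosome 1, 189640606 to 189688086), a large coiled-coil protein of the outer kinetochore, stood at 38.7, 76.9 and 27.1 in the IL-33 libraries, against 146, 203 and 145 in the PBS libraries (log2 fold change −1.88, SE 0.37, adjusted p = 0.00858, limma). Cenpe, a kinesin that moves chromosomes to the spindle equator, had 47.7, 55.4 and 20.3 in the IL-33 libraries, against 121, 189 and 123 in the PBS libraries (log2 fold change −1.87, SE 0.39, adjusted p = 0.0102, limma). Cenpe was not called without PBS replicate 2 (log2 fold change −1.66, adjusted p = 0.0529, limma), nor Nuf2 without PBS replicate 2 or 3 (log2 fold change −1.61 to −1.41, adjusted p = 0.0601 to 0.0684, limma).

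Kinesins, the motors that walk along spindle microtubules, fell for the most part. Of 8 tested, 6 fell and 0 rose, against 14.4% lower and 17.4% higher of all genes tested. Kif20b (chromosome 19, 34922361 to 34975745), a motor of late cytokinesis, had 19.8, 24.6 and 3.39 in the IL-33 libraries, against 86.2, 129 and 101 in the PBS libraries (log2 fold change −2.98, SE 0.61, adjusted p = 0.0101, limma). The value of IL-33 replicate 3 rests on 2 reads. Kif23 (chromosome 9, 61915905 to 61946774), a subunit of the centralspindlin complex, stood at 53.05, 38.4 and 15.3 in the IL-33 libraries, against 121, 174 and 124 in the PBS libraries (log2 fold change −2.09, SE 0.43, adjusted p = 0.00985, limma). Kif2c, a microtubule depolymerase of the centromere, had 8.09, 13.8 and 10.2 in the IL-33 libraries, against 35.7, 56.8 and 42.6 in the PBS libraries (log2 fold change −1.98, SE 0.33, adjusted p = 0.00467, limma). Kif22, a motor bound to chromosome arms, had 45.9, 44.6 and 42.4 in the IL-33 libraries, against 104, 140.4 and 90.2 in the PBS libraries, with IL-33 values within 4 counts of one another (log2 fold change −1.29, SE 0.24, adjusted p = 0.00658, limma).

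Among the other 4 kinesins tested, 2 were called. Kif15, a motor that helps to keep the spindle bipolar, had 32.4, 78.4 and 40.7 in the IL-33 libraries, against 123, 149 and 92.95 in the PBS libraries (log2 fold change −1.33, SE 0.35, adjusted p = 0.0244, limma). Kif20a, which carries the passenger complex to the midzone, stood at 28.8, 39.99 and 38.98 in the IL-33 libraries, against 73.0, 96.8 and 60.1 in the PBS libraries (log2 fold change −1.06, SE 0.27, adjusted p = 0.0215, limma), although 29.3% of its exonic bases overlap exons of Cdc23 on the other strand. Kif11, the motor that pushes the spindle poles apart, had 84.5, 195 and 186 in the IL-33 libraries, against 172, 311 and 179.6 in the PBS libraries, with a log2 fold change of −0.54 (SE 0.37) that was not called. Kif4, a chromosome-bound motor, had 74.6, 132 and 122 in the IL-33 libraries, against 134, 188 and 95.7 in the PBS libraries, with a log2 fold change of −0.33 (SE 0.32), also not called. For both, IL-33 replicate 1 was the lowest library and the other 2 lay inside the PBS range. Kif18a, which dampens chromosome movement, missed the filter. It had 2.697, 0 and 1.69 in the IL-33 libraries, against 13.2, 10.2 and 9.09 in the PBS libraries, from 4 reads over the IL-33 libraries and 44 over the PBS libraries. Of the called kinesins, Kif23 was not called without PBS replicate 2 (log2 fold change −1.92, adjusted p = 0.0503, limma). Kif15 lost its call without IL-33 replicate 3 or any one PBS library (log2 fold change −1.51 to −1.17, adjusted p = 0.0530 to 0.102, limma), or with the GC content and length trend removed (−1.06). Kif20a lost its call without IL-33 replicate 2 or any one PBS library (log2 fold change −1.22 to −0.88, adjusted p = 0.0503 to 0.106, limma).

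Genes of the spindle midzone and of cytokinesis were lower as well. Of 8 genes of spindle assembly and cytokinesis, 6 fell and 0 rose, against 14.4% lower and 17.4% higher of all genes tested. Anln (chromosome 9, 22332012 to 22389188), which encodes anillin, a scaffold of the contractile ring, had 23.4, 10.8 and 13.6 in the IL-33 libraries, against 63.7, 98.2 and 51.02 in the PBS libraries (log2 fold change −2.11, SE 0.37, adjusted p = 0.00580, limma). Racgap1 (chromosome 15, 99620496 to 99651656), the partner of Kif23 in centralspindlin, stood at 31.5, 29.2 and 28.8 in the IL-33 libraries, against 74.6, 118 and 95.05 in the PBS libraries, with IL-33 libraries within 3 counts of one another (log2 fold change −1.63, SE 0.25, adjusted p = 0.00314, limma). Ect2, the exchange factor that centralspindlin recruits to activate RhoA, had 33.3, 21.5 and 5.08 in the IL-33 libraries, against 86.2, 93.1 and 66.4 in the PBS libraries (log2 fold change −2.29, SE 0.58, adjusted p = 0.0205, limma). Prc1, which bundles midzone microtubules, had 41.4, 55.4 and 33.9 in the IL-33 libraries, against 91.6, 148 and 106 in the PBS libraries (log2 fold change −1.38, SE 0.28, adjusted p = 0.00948, limma). So both centralspindlin genes, Kif23 and Racgap1, and Ect2 were called lower.

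Among spindle assembly genes, Nusap1, a microtubule-bundling protein, had 8.99, 9.23 and 5.08 in the IL-33 libraries, against 26.4, 41.5 and 33.5 in the PBS libraries (log2 fold change −2.01, SE 0.36, adjusted p = 0.00639, limma). Tpx2, which activates Aurora A on the spindle, stood at 31.5, 81.5 and 67.8 in the IL-33 libraries, against 129, 178 and 115 in the PBS libraries (log2 fold change −1.29, SE 0.36, adjusted p = 0.0305, limma). Hmmr, a spindle pole protein, had 17.98, 15.4 and 3.39 in the IL-33 libraries, against 28.7, 48.7 and 30.1 in the PBS libraries, without overlap, and just missed the threshold (log2 fold change −1.69, SE 0.57, adjusted p = 0.0517, limma). Aspm, which focuses spindle poles, had 41.4, 84.6 and 74.6 in the IL-33 libraries, against 97.8, 119 and 74.1 in the PBS libraries, with overlap (log2 fold change −0.57, SE 0.32, adjusted p = 0.198, limma). Ect2 lost its call without IL-33 replicate 2 or any one PBS library (log2 fold change −2.51 to −2.19, adjusted p = 0.0510 to 0.0791, limma). Tpx2 was not called without any one PBS library (log2 fold change −1.42 to −1.11, adjusted p = 0.0788 to 0.119, limma), and Prc1 without PBS replicate 2 (log2 fold change −1.19, adjusted p = 0.0539, limma).

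Set beside one another per kilobase of the longest annotated transcript, the genes spanned a wide range of levels. In the IL-33 libraries the highest means were 96.8 normalized counts per kilobase for Bub3, 88.3 for Mki67 and 67.6 for Incenp, and the lowest was 0.225 for Kif18a. In the PBS libraries the highest were 111 for Mki67, 109 for Top2a, 97.04 for Incenp and 83.4 for Bub3, and the lowest was 1.66 for Kif18a. Top2a was thus seventh after IL-33, at 26.3, and second in PBS. Bub3, Incenp, Mki67, Kif11, Kif4, Ccnf and Mad2l1, which were not called, include 3 of the 4 highest genes in PBS. The counts of 3 further genes may hold reads of a neighbour on the other strand, since 12.5% of the exonic bases of Ccna2 overlap Exosc9, 11.1% of those of Prc1 overlap Rccd1 and 15.1% of those of Kif4 overlap Pdzd11. The precision of low genes is limited by reads, since 8 IL-33 reads of Bub1 set against 141 PBS reads carry a large counting error.

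Libraries of the same group also differed. After IL-33, replicate 3 was the lowest of all 6 libraries for 24 of the 43 genes tested, replicate 1 for 16 and replicate 2 for 2, and the median coefficient of variation of these genes was 37.5% over the IL-33 libraries, against 27.4% for all genes tested. In PBS, replicate 2 was the highest of the 6 for 37 genes, and the median coefficient of variation was 23.2%, against 11.7% for all genes tested. Single mitosis genes rest on few reads, so counting error enters these coefficients, and the genes compared were not matched in level. PBS replicate 2 was also the highest library for Prg2, at 41054, and for Epx, at 4408.

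By correlation over the 6 libraries with the mean standardised level of the 43 genes, the most similar genes outside the lists were Cntln (r = 0.993), Zfp949 (0.993), Homez (0.992), Srbd1 (0.992) and Scin (0.991). Of 9692 genes compared, 146 had an r above 0.95. These correlations are descriptions over the same 6 libraries and the same pair of groups.

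Other genes of division were read from the same fit, in lists of known mitosis, condensin, anaphase-promoting complex and centrosome genes. In that fit 14.4% of all genes tested were called lower and 17.4% higher. Without PBS replicate 1, 2 or 3 the shares called lower were 6.24%, 3.82% and 3.36%. Without IL-33 replicate 1, 2 or 3 they were 28.2%, 7.26% and 11.5%. The counts of each list below, the cell type markers included, stand beside these shares. Of 63 further mitosis genes tested, 26 fell and 4 rose, with a median log2 fold change of −0.86. Those with the largest falls were Casc5 (−2.57), now called Knl1, the kinetochore platform of the checkpoint, the kinesin gene Kif14 (−2.18), and the shugoshin genes Sgol2 (−2.11) and Sgol1 (−2.05), which protect cohesin at centromeres. Casc5 stood at 19.8, 10.8 and 6.78 after IL-33, against 65.2, 76.4 and 76.9 in PBS. The 4 that rose were Kif24 (1.18), a kinesin of the centriole, Psrc1 (0.90), a microtubule-binding protein, Zwint (0.87), a kinetochore adaptor, and Pttg1 (0.82), which encodes securin. With equal totals 0 of this list rose and 51 fell, and without Rn45s in the totals 1 and 41. These scalings called 50.1% and 33.9% of all genes tested lower and 2.5% and 9.02% higher. Leaving out a library gave 1 to 6 higher and 8 to 32 lower, the 8 being without PBS replicate 2, with 9 and 13 without PBS replicates 3 and 1.

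Genes of condensin, which compacts mitotic chromosomes, fell as well. Of its 8 subunit genes, 6 fell and 0 rose, with a median of −1.68, among them Ncapg (−2.42), Smc2 (−2.29), Ncapd2 (−1.89) and Smc4 (−1.73). Without PBS replicate 2 or 3, 3 of the 8 were called, and without IL-33 replicate 2, 4. Of 17 genes of the anaphase-promoting complex and its partners, whose subunits also work outside mitosis, 2 fell, 2 rose and 13 were not called, with a median of −0.18. Those that fell were Fbxo5 (−1.57), an inhibitor of the complex, and Anapc5 (−0.85), and those that rose were Anapc2 (1.07) and Anapc16 (1.01). With equal totals 11 fell and 0 rose, and without Rn45s in the totals 7 and 0, while 50.1% and 33.9% of all genes tested fell. The calls changed with the libraries, to 0 in either direction without PBS replicate 2 or 3 and to 3 higher and 6 lower without IL-33 replicate 1.

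Of 13 centrosome genes tested, 6 fell and 0 rose, with a median of −0.70. Stil (−2.25) and Cenpj (−1.45), which are needed to build centrioles, and Cep135 (−1.22) and Cep192 (−1.21) had the lowest log2 fold changes of those called. Without PBS replicate 2 or 3, 2 were called, and 3 without PBS replicate 1 or IL-33 replicate 2. Genes of DNA replication and S phase, the part of the cycle before mitosis, had 22 of 46 lower and 0 higher, with a median of −1.04. Of the called genes, those with the lowest log2 fold changes were Orc1 (−2.95), Dbf4 (−2.33), Rfc3 (−2.27) and E2f8 (−2.10). Without PBS replicate 2 or 3, 9 of these 46 were called, and 13 without PBS replicate 1.

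Regulators of the cell cycle and of these promoters were read in the same way. A list of the MuvB complex, NF-Y, the Myb and Rb families, and E2f4, E2f5, Tfdp1 and Tfdp2 had 15 genes tested. Of these, 1 was called lower, Tfdp2 (−1.45), and 0 higher. NF-Y and MuvB are the factors described above as binding CCAAT and the CHR, and Tfdp2 belongs to neither. The next gene by p, Lin37, a MuvB subunit, had −0.58. The median of this list was −0.16, which became −0.025, −0.27 and −0.097 when IL-33 replicate 1, 2 or 3 was left out, and Tfdp2 lost its call without IL-33 replicate 2 or PBS replicate 2 or 3. With equal totals 10 of the 15 were lower, and without Rn45s in the totals 6, against 50.1% and 33.9% of all genes tested. Of 13 genes that restrain the cycle, 6 rose and 4 fell. Those that rose included Gadd45b (3.48), Gadd45g (1.79) and Gadd45a (1.28), stress genes whose products can inhibit Cdk1, and Cdkn1a (2.36), which encodes the inhibitor p21. Cdkn1a stood at 2027, 2130.0 and 2354 after IL-33, against 565, 402 and 333 in PBS.

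Those that fell were the inhibitor genes Cdkn2c (−2.57), Cdkn2d (−1.22) and Cdkn1b (−1.13), which act in G1, and Ccng2 (−0.67), a cyclin linked to arrest. Cdkn2c had 2.697, 4.61 and 0 after IL-33, against 13.98, 17.5 and 14.7 in PBS. The median of the restraining genes was 0.73, which became −0.30 with equal totals, where 2 rose and 4 fell. That scaling called 2.5% of all genes tested higher and 50.1% lower. Without Rn45s in the totals the median was 0.31, with 6 higher and 4 lower, against 9.02% and 33.9% of all genes tested. Leaving out PBS replicate 3 gave 0.32, leaving out IL-33 replicate 3 gave 0.51, and leaving out any other library gave 0.63 to 0.99. Without PBS replicate 1, 2 or 3, 6 were higher each time, and 2, 1 and 2 were lower.

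**Figure D3:**
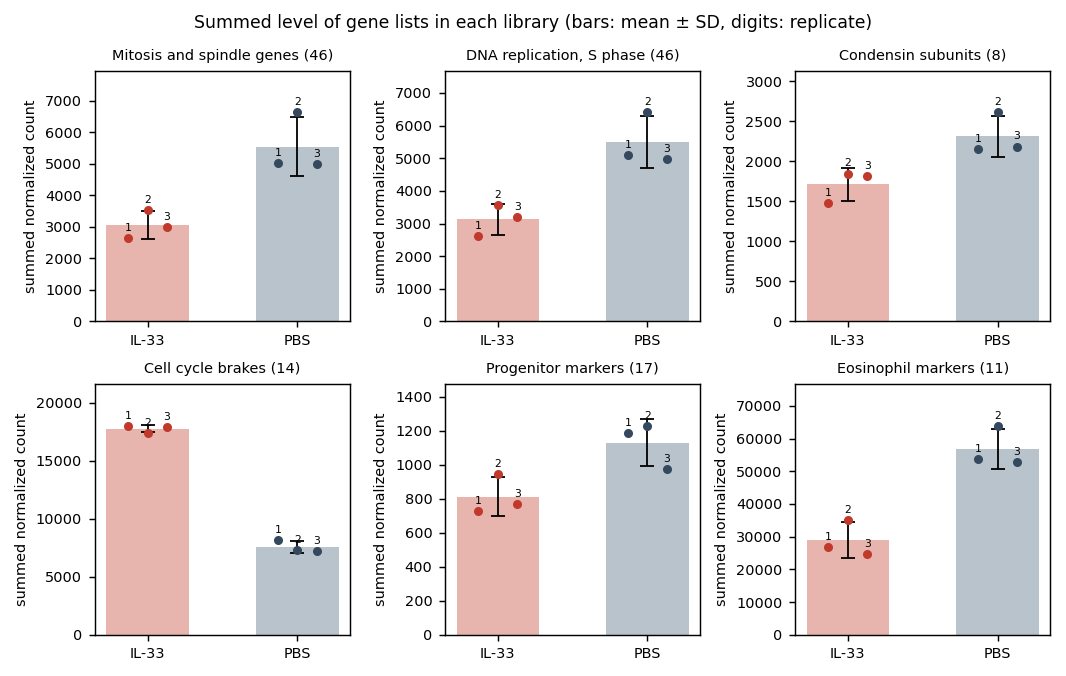
Bars give the mean summed normalized count of each gene list over 3 IL-33 and 3 PBS libraries with the SD, and points give the libraries, numbered by replicate. Mitosis genes sum to 2647 to 3533 after IL-33 and 4984 to 6634 in PBS, while genes that restrain the cycle sum to 17386 to 18011 after IL-33 and 7212 to 8129 in PBS. The latter sum is weighted to abundant genes such as Gadd45b (mean 5953 after IL-33, 555 in PBS). Of the 13 restraining genes tested, 6 rose and 4 fell.

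Markers of other cells that marrow cultures can hold were read beside these results. Of 17 markers of dividing progenitors, 11 were tested, 4 fell and 0 rose, and their summed level was 727 to 944 after IL-33, against 975 to 1229 in PBS. Those that fell were Erg (−3.30), Ms4a3 (−1.74), Ctsg (−1.40) and Mpo (−1.24). Kit, the stem cell factor receptor, stood at 37.8, 23.1 and 27.1 after IL-33, against 28.7, 25.5 and 32.1 in PBS, with a log2 fold change of 0.003. Hoxa9 and Flt3 were at or near 0 in all libraries, with no value above 6.99. Without PBS replicate 2 or 3, 1 of these markers was called lower, and 2 without PBS replicate 1. The shares of all genes tested were then 3.82%, 3.36% and 6.24%.

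Of 12 neutrophil markers, 4 were lower and 0 higher, at a summed 2859 to 3767 after IL-33, against 4546 to 5085 in PBS. Of 13 mast cell and basophil markers, 6 were tested, 2 were lower and 0 higher, the summed level was 2681 to 4231 after IL-33, against 1749 to 3226 in PBS, and Mcpt1, Mcpt2 and Mcpt4 were at 0 throughout. Of 14 macrophage and dendritic cell markers, 4 were tested and 2 were higher, Csf1r (1.40) and Itgax (0.74). Another of the 4 had a log2 fold change below 0 (−0.56) and was not called. The summed level of the 14 was 4492 to 5649 after IL-33, against 1756 to 2109 in PBS. As 9 of the 14 stayed under 10 in all 6 libraries, that sum rests on few genes. Of 12 lymphoid markers, 2 were tested and 0 called, at a summed 45.8 to 83.6 after IL-33, against 71.3 to 85.4 in PBS, with Rag1, Gata3 and Ncr1 at 0. Of 12 erythroid and megakaryocyte markers, 6 were tested, 2 were higher and 1 lower, at a summed 2989 to 3580.3 after IL-33, against 2791 to 3683 in PBS, with the haemoglobin genes Hba-a1 and Hbb-b1 at 0. The 2 called higher became 0 without IL-33 replicate 2 or PBS replicate 2 or 3, and 1 without IL-33 replicate 3. Of the macrophage and dendritic markers, 1 was called higher without IL-33 replicate 3 or any one PBS library, and of the mast cell and basophil markers, 1 was called lower in each case but that without IL-33 replicate 1. Of 11 eosinophil markers, 9 were lower and 1, Gata1, was higher, at a summed 24617 to 35154 after IL-33, against 52876 to 63914 in PBS. Leaving out a library gave 4 to 10 eosinophil markers lower, the fewest without PBS replicate 2, and 1 to 7 neutrophil markers, with 1 in each case but that without IL-33 replicate 1. The part of these cell types in the fall of the mitosis genes was not tested.

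Transcripts poor in G and C tended to be lower after IL-33 across the whole table, and the median mitosis gene is poorer in them than the median of the other genes. The median GC content of the longest annotated transcript was 46.3% for the 43 genes tested and 49.9% for the other genes. Across the other 10394 genes with a match the log2 fold change correlated with GC content at a Pearson r of 0.27 (Spearman 0.28), and across the 43 at 0.34 (Spearman 0.34). Genes are not independent, and these r are descriptions. With transcript length the Spearman correlation was −0.043 in the 43. Genes were then split into 4 bins of GC content of equal size. In the bin with the lowest GC content, 11 of 18 mitosis genes were called lower, with a median of −1.64, and 19.02% of the other genes, with a median of −0.34. In the next bin 10 of 15 were called lower, with a median of −1.57, and 17.7% of the others, with a median of −0.16. In the upper 2 bins, which held 5 mitosis genes each, 1 and 2 were called lower, and 13.4% and 6.91% of the others. After the trend with GC content and length was removed from each library, 27 of the 43 genes were lower and 0 higher, with a median of −1.27, against 16.7% of all genes lower and 18% higher.

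**Figure D4:**
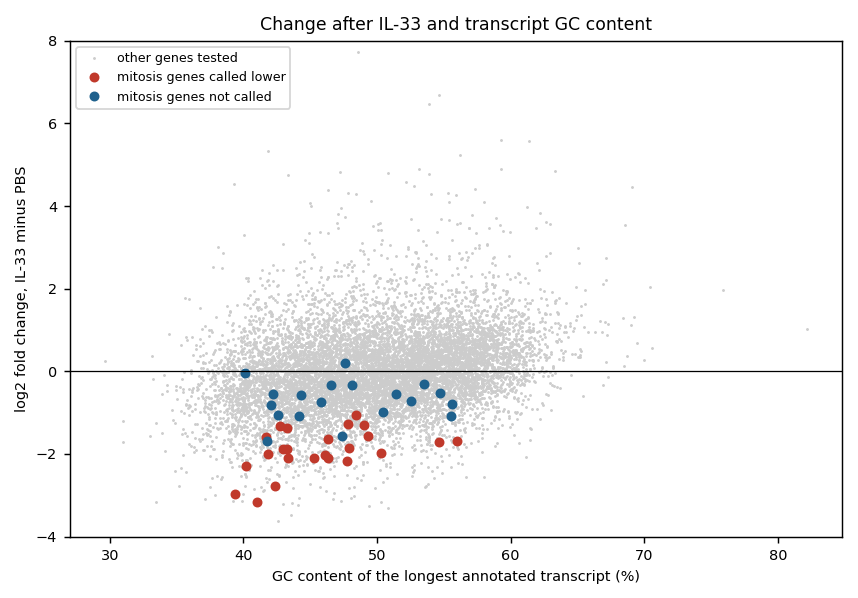
Each point is a gene tested, with the GC content of its longest annotated transcript in percent on the horizontal axis and its log2 fold change, IL-33 minus PBS, on the vertical axis. The mitosis genes called lower all lie at −1.06 or below and mostly under 50% GC, while those not called spread from −1.69 to 0.21.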

How the data were processed

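Ribosomal RNA-depleted total RNA of 6 libraries was sequenced, 3 per group, per the labels' protocols. The authors deposited a table of normalized counts, used here as a signal, with 1 scaling factor per library. HISAT2, HTSeq, DESeq2 and build mm10 are named in the submitters' processing notes, with versions, annotation and strand setting not given in the sources used here. All values were whole multiples of a library's smallest value (100% within 0.1 of a read), which gave recovered reads of 8218303 to 10785521 per library. Without molecular identifiers these reads need not be separate molecules, and read numbers speak to counting error only.

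Differences were fitted with limma 3.58.1 in R 4.3.3 (empirical Bayes, trend in the variance) on log2(normalized count + 1) over the 10544 genes with at least 10 in at least 3 libraries, IL-33 minus PBS, two-sided, with Benjamini-Hochberg adjustment over all of them. Fold changes on this scale understate low genes. Alternatives used edgeR 4.0.16 and DESeq2 1.42.0 on recovered reads, other scalings, filters and pseudocounts, and left-out libraries with the same genes tested. The tests were also run on simulated counts in which all 6 libraries had the spread of the PBS libraries. The real IL-33 libraries spread more, with a median coefficient of variation of 27.4% over all genes tested, against 11.7% in PBS. That run hence gives no error rate for these data. Symbols were matched to GENCODE vM21 (GRCm38, which is mm10) for 23012 of 23420 genes, 1275 through an older symbol, and coordinates are 1-based gene spans. No replicates of a group agreed within sampling noise (chi-square per gene of 7.20 to 78.1).

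The mitosis genes, the other lists and the tests were chosen with earlier results of these data known. Named were all 46 mitosis genes and, in each other list, up to 4 called genes per direction by size of change, or up to 2 with the smallest p where fewer than 2 were called. The 4 promoters shown, Spc24 and the markers named beside their list were chosen after their values were seen. Similar genes were the 5 with the highest Pearson correlation with the mean standardised level of the mitosis genes, predicted gene models left out.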

Additional observations from a re-analysis of the deposited data

How the results depend on the processing

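Of 845 values of single mitosis genes under the alternatives, 734 kept their direction and their side of the threshold, and 0 of the 43 genes were called higher under any. The 12 genes called without each library in turn were also called under every other alternative that gave a value. The 24 genes lower became 42 with equal totals, 37 with equal totals without Rn45s and 15 with a filter at 50, which left 28 genes tested. Leaving out 1 library gave 12 to 30 lower, with the fewest without PBS replicate 2. It gave a median of −1.61 to −1.19, against −1.38. The median was −2.40 with equal totals. Over all genes, 264 were higher and 5287 lower with equal totals, and 951 and 3570 without Rn45s in the totals. Leaving out 1 library gave 706 to 2989 higher and 354 to 2971 lower. Without IL-33 replicate 1 more genes were called than with all 6 libraries, 2989 higher and 2971 lower, against 1837 and 1522. The chi-square per gene was 47.3 and 78.1 for that library against IL-33 replicates 2 and 3, and 11.1 between these. Fewer libraries leave fewer degrees of freedom, and the cause of the changes in either direction was not tested. Bub3 changed sign with equal totals (−0.83) and without Rn45s (−0.21). Mad2l1 changed sign after quantile normalization (0.16), without IL-33 replicate 3 (0.14), without PBS replicate 2 (0.0074) or 3 (0.0060), with −0.17 to 0.14 over left-out libraries, with IL-33 replicate 1 alone (0.027) and with the GC content and length trend removed (0.36). With the replicate number as a block, 28 of the 43 were lower, and 1620 genes were higher and 1298 lower overall. The labels do not say that the numbers pair samples, so they were not taken to do so. Deviations of same-numbered libraries correlated at r = 0.046, 0.24 and −0.16, and of differently numbered ones at −0.28 to 0.24. With 3 libraries per group these r can neither show nor exclude a pairing. The reads of low genes limit depth, and 15 genes had an IL-33 library under 10.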
